A study of Mus musculus with 2 samples.

Results

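Acyl-CoA thioesterases hydrolyse fatty acyl-CoA to free fatty acid and CoA, and so undo the step by which acyl-CoA synthetases activate a fatty acid. The mRNAs of 9 members of this family, Acot1, Acot2, Acot3, Acot4, Acot5, Acot7, Acot8, Acot12 and Acot13, were measured in regenerating mouse liver of wild-type mice (WT) and mice without PPARβ (PPARβ-null, KO). They were chosen by symbol from the 33224 gene symbols of the expression table, and all 9 were found, each in 1 row that named no other gene. The family has distinct folds. The type I enzymes (Acot1 to Acot5 here) are closely related α/β-hydrolase proteins, whereas the type II enzymes (Acot7, Acot8, Acot12 and Acot13) share the hotdog fold. Within the liver cell they are spread over cytosol, mitochondria and peroxisomes, and several type I genes are textbook targets of PPARα, which responds to fatty acids as PPARβ does.

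Total liver RNA from 1 WT and 1 KO library was sequenced with 100 bp reads, 48 hr after partial hepatectomy (PH), the removal of part of the liver after which the rest regrows. Both groups were male C57BL/6 mice fed ad libitum, and the KO group carried the PPARbeta-null genotype with no further allele or agent named. The sample labels gave an age of 4 months for both, the series text gave 3 months and the protocol a range from 3 to 5 months. With 1 library per genotype no value carries an error between mice, no test of the genotypes could be made, and whether RNA of several mice was pooled is not stated. Levels are FPKM, fragment counts divided by exon length and by the size of the library, so that genes can be compared within a library. From single-exon genes, 1 fragment on a transcript of 1 kb was worth about 0.0189 FPKM in the WT and 0.0174 FPKM in the KO library. All intervals below are 95% intervals of counting error from such estimated fragments, as if the longest annotated transcript were the one measured, and they do not hold the difference between mice.

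Hepatocyte markers were abundant in both libraries, with 8 of the 9 measured and a summed FPKM of 13493 (WT) and 11167 (KO). Alb is listed at 0 because its estimate failed. Of the 8 measured, 5 were lower and 3 higher in KO at the deposited scaling, and 4 were lower and 4 higher with equal upper quartiles. Markers of adipocytes, muscle and kidney summed to at most 0.0500 FPKM. Lists of other liver cells had lower summed FPKM in KO than in WT. At the deposited scaling, at which 74.8% of all symbols were lower in KO, 4 of 5 macrophage markers were lower, with sums of 31.3 against 47.9, and 4 of 4 endothelial markers, with 30.8 against 41.1. All 4 stellate markers (11.3 against 16.6) and all 4 cholangiocyte markers (3.03 against 5.33) were lower as well, and no marker of these lists was at 0. With equal upper quartiles 3 of the 4 stellate and 3 of the 4 cholangiocyte markers stayed lower, and with centring also 3 of the 4 endothelial markers. The 4 erythroid markers summed to 252 FPKM in KO and 295 FPKM in WT, most of it Hba-a1 and Hbb-b1, which were lower in KO, whereas Alas2 was 1.82-fold higher. In whole liver, fewer cells of a type and less RNA per cell cannot be told apart. Ppard, the targeted gene, measured 2.67 FPKM in WT against 2.42 FPKM in KO, and the part of the gene that was deleted could not be read from a whole-locus value.

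The most abundant member in the WT library was Acot13, a small thioesterase at mitochondria that partners with phosphatidylcholine transfer protein, with an FPKM of 31.6. It was followed by Acot12, the cytosolic acetyl-CoA hydrolase of liver (20.1), Acot7, a cytosolic long-chain enzyme best known from brain (14.5), and Acot1, the inducible cytosolic long-chain enzyme (11.7). Peroxisomal Acot8 stood at 10.1 and peroxisomal Acot4 at 6.38, mitochondrial Acot2 at 3.64, peroxisomal Acot3 at 1.28 and peroxisomal Acot5 at 0.0798 FPKM. In WT no neighbours in this order had overlapping counting intervals, but the lower end of Acot1 (11.0) and the upper end of Acot8 (10.9) nearly met. In the KO library the order was Acot12 (25.5), Acot1 (22.7), Acot13 (20.7), Acot8 (15.5), Acot4 (10.8), Acot7 (8.61), Acot2 (5.24), Acot3 (2.40) and Acot5 (0.0649). The intervals of Acot1 and Acot13 overlapped there. Acot2, Acot3 and Acot5 kept their rank, and the other 6 members changed it.

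**Figure D1:**
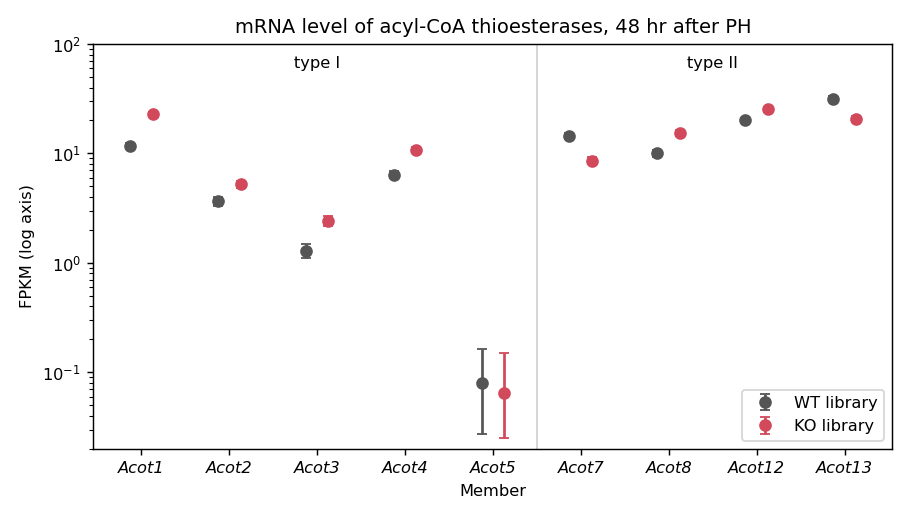
FPKM of each member (log axis) in the WT and the KO library, 1 point per library, with 95% counting intervals that hold no difference between mice. Acot1 goes from 11.7 in WT to 22.7 in KO, Acot13 from 31.6 to 20.7, and Acot5 lies below 0.1 in both.

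No member differed by more than 2-fold on the log2(FPKM + 0.1) scale, the scale of all log2 values given without further remark. Of the 15727 symbols with a mean of 0.1 FPKM or more, 2.08% were higher in KO by more than 2-fold and 9.94% were lower. At 1.5-fold, 4 members were higher in KO (Acot1, Acot3, Acot4 and Acot8) and 2 lower (Acot7 and Acot13), while 4.93% of all symbols were higher and 22.9% lower. Acot5 was the member below the mean FPKM of 0.1, so these counts are out of 8. Of the 8, 6 were higher in KO by any amount, against 25.2% of all symbols. Those 6 were higher under both other scalings too, where the share of all symbols was 43.4% with equal upper quartiles and 48.2% with centring on the median of expressed genes. Their median log2 KO/WT was 0.57, and the median over all symbols was -0.25. With the libraries scaled to equal upper quartiles, which moved the median over all symbols to -0.06, 5 members were higher by more than 1.5-fold and none was lower, against 7.82% and 16.2% of all symbols. Acot1 and Acot3 then passed 2-fold, as did 2.96% of all symbols. With centring the same 2 members passed, and 3.27% of all symbols. Acot7 and Acot13 stayed lower in KO under each scaling, and a KO/WT ratio of FPKM between 0.849 and 1 changes side under at least 1 of them.

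The type I genes are neighbours on the plus strand of chromosome 12, in a cluster of 88.2 kb from 85328811 to 85416970 (NCBIM37, the build to which the authors aligned). In the deposited table the loci of Acot3, Acot4, Acot8 and Acot12 also span other genes, so coordinates are given for the gene in GENCODE vM1. Acot1 (85350448 to 85358621) measured 11.7 FPKM in WT against 22.7 FPKM in KO, about 972 and 2045 fragments. Its KO/WT ratio was 1.94 (1.79 to 2.09), the largest of the family, and 2.24% of all symbols had a higher log2 KO/WT. Acot3 (85393094 to 85400515) went from 1.28 to 2.40 FPKM, a ratio of 1.87 (1.56 to 2.26). Acot4 (85379329 to 85385673), which in mouse acts on succinyl-CoA, went from 6.38 to 10.8 FPKM, a ratio of 1.69 (1.55 to 1.84). The 3 genes were thus higher in KO by similar ratios at levels that differed several-fold. The ratio of Acot4 to Acot3, which no scaling of the libraries changes, was 4.98 in WT and 4.49 in KO.

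Acot2 (85328811 to 85334823), the mitochondrial enzyme, measured 3.64 FPKM in WT against 5.24 FPKM in KO, a ratio of 1.44 (1.27 to 1.63). Acot5 (85410275 to 85416970) measured 0.0798 FPKM in WT against 0.0649 FPKM in KO, about 6.42 and 5.67 fragments. Its ratio of 0.813 had an interval from 0.246 to 3.44, so at this depth a difference of the size seen for its neighbours was not detectable. Across the cluster the members summed to 23.1 FPKM in WT against 41.2 FPKM in KO, a ratio of 1.78, which became 2.05 with equal upper quartiles.

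**Figure D2:**
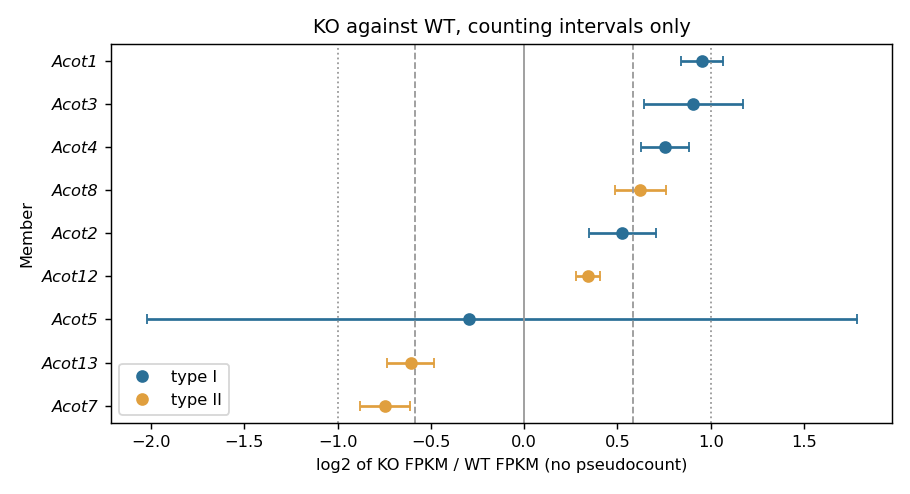
Log2 ratio of FPKM, KO over WT and without a pseudocount, for each member, with 95% counting intervals; dashed lines mark 1.5-fold and dotted lines 2-fold. Acot1 is nearest to 2-fold higher in KO with a ratio of 1.94, Acot7 is lowest with 0.595, and the interval of Acot5 spans 0.246 to 3.44.

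Some stretches of the type I genes are shared, so that short reads can fit several of them. Coding sequences of the 10 pairs were between 74.5% and 95.5% identical in aligned bases, with Acot1 and Acot2 the closest pair. By the same alignment the 26 pairs that include a type II gene were between 57.1% and 77.8% identical. Only the pair of Acot12 and Acot13 was above the lowest type I pair, and it was aligned over 419 bases, since the coding sequence of Acot13 has only 423. Among those pairs without Acot13 the highest value was 67.9%, for Acot8 and Acot12. The stretch shown is 90 coding bases of the GENCODE vM1 transcripts, at coding bases 18 to 107 of Acot1, and capitals mark bases that differ from Acot1.
Acot1: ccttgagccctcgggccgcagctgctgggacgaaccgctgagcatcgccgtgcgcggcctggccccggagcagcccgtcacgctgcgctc
Acot2: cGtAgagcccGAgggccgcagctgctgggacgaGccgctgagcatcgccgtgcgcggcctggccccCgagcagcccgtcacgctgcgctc
Acot3: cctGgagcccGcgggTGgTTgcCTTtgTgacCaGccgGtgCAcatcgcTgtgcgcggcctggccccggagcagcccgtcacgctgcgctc
Acot4: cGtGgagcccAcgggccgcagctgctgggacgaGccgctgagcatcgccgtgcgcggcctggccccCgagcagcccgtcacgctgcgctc
Acot5: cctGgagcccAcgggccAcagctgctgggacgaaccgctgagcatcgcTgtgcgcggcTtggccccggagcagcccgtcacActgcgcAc
Acot2 had 6 differences from Acot1 in this stretch, Acot4 had 5, Acot5 had 7 and Acot3 had 16. It was the first stretch without gaps whose summed differences were the median over such stretches. Over the whole coding sequences the order was different. Identity to Acot1 was 95.5% for Acot2, 84.0% for Acot3, 83.2% for Acot5 and 76.6% for Acot4.

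Of all windows of 100 bases, the read length, in the Acot1 transcript, 32.5% also occur in a protein-coding transcript of another gene. The share was 17.1% for Acot2, 8.32% for Acot5, 5.93% for Acot3 and 0.988% for Acot4. No window of Acot7, Acot8, Acot12 or Acot13 occurs in a protein-coding transcript of another gene. Only such transcripts were searched, in their own orientation, so noncoding genes and overlaps with the opposite strand were not covered. How reads from shared windows were divided between genes is not stated, so the single values of Acot1 and Acot2, and to a lesser extent of Acot3 and Acot5, are uncertain. The sum of both, which depends less on how reads were divided within the pair, was 15.4 FPKM in WT against 27.9 FPKM in KO, a ratio of 1.82. Acot4, of which hardly any window is shared with another protein-coding transcript, had the ratio of 1.69 given above. An antisense noncoding RNA gene, described below, covers 24.5% of its exonic bases and was not part of this search.

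PPARs bind DNA together with RXR at a direct repeat of AGGTCA-like half-sites with a spacer of 1 base. The bases before the start of the 3 cluster genes with the largest ratios are printed for that reason, 250 bases each, from RefSeq (GRCm38.p6), and each was found as 1 exact match in NCBIM37, whose coordinates are given. Acot1 lies at chr12:85350202-85350451, Acot3 at chr12:85392844-85393093 and Acot4 at chr12:85379079-85379328, all on the plus strand. Of these, the first 2 held no match of the motifs searched, and capitals mark the match in Acot4. The motifs, searched on both strands, were the half-site AGGTCA, a loose repeat (GGNCA, any base, then AGGNCA) and a strict repeat (AGGTCA, any base, then AGGTCA). The Acot1 stretch ends 4 bases inside the GENCODE gene.
Acot1: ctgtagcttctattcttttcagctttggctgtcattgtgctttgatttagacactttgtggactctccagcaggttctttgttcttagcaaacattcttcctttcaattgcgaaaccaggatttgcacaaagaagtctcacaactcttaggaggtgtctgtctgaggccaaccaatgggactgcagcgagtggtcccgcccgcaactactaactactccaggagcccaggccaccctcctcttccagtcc
Acot3: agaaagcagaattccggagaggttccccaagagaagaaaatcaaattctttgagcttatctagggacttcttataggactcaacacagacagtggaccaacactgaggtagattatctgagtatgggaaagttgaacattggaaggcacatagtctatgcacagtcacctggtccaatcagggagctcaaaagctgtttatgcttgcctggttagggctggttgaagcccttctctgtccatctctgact
Acot4: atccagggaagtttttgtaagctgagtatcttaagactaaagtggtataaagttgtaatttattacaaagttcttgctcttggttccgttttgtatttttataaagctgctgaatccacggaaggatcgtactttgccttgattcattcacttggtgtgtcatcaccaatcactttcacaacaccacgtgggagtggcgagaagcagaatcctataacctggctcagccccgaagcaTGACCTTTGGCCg
Acot4 held 1 match of the loose repeat, on the minus strand, with its outermost base 13 bases before the start, and its match of AGGTCA lies within it.

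Promoters were found by symbol for 8 of the 9 members, Acot13 being the other. The stretch searched for Acot7, chr4:151559467-151559716, lies inside the GENCODE gene, which starts at 151552243. AGGTCA matched in 3 of the 8 (Acot4, Acot5 and Acot12), and in 13.8% of all 27025 promoters. The loose repeat matched in that of Acot4 alone among the 8, and in 0.670% of all promoters. The strict repeat matched in none of the 8, and in 0.0370% of all promoters. A match in these 250 bases is a run of letters and not a measured binding site, and elements farther away were not searched.

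Around the cluster, 7 symbols outside the member list within 250 kb had a mean of 1 FPKM or more, of which 1 was higher by more than 1.5-fold and none was lower. That was 4732463B04Rik, a noncoding RNA gene that runs antisense across Acot4 and into Acot3, with 0.713 FPKM in WT against 1.34 FPKM in KO, a ratio of 1.88 (1.49 to 2.38). Its exons cover 24.5% of the exonic bases of Acot4 and 312 of the 2601 of Acot3. The library kit named in the labels does not mark strand, so reads from the antisense RNA and from these genes cannot be told apart where they overlap. On one side, the KO/WT ratio was 1.06 for Numb and 0.848 for 2410016O06Rik. On the other side it was 0.804 for C130039O16Rik and 0.930 for the joint row of Ptgr2 and Zfp410. Acot6, a further type I gene at the end of the cluster, is named although it falls outside the rule for named genes, and measured 0.358 FPKM in WT against 0.445 FPKM in KO, with a ratio interval from 0.896 to 1.76.

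**Figure D3:**
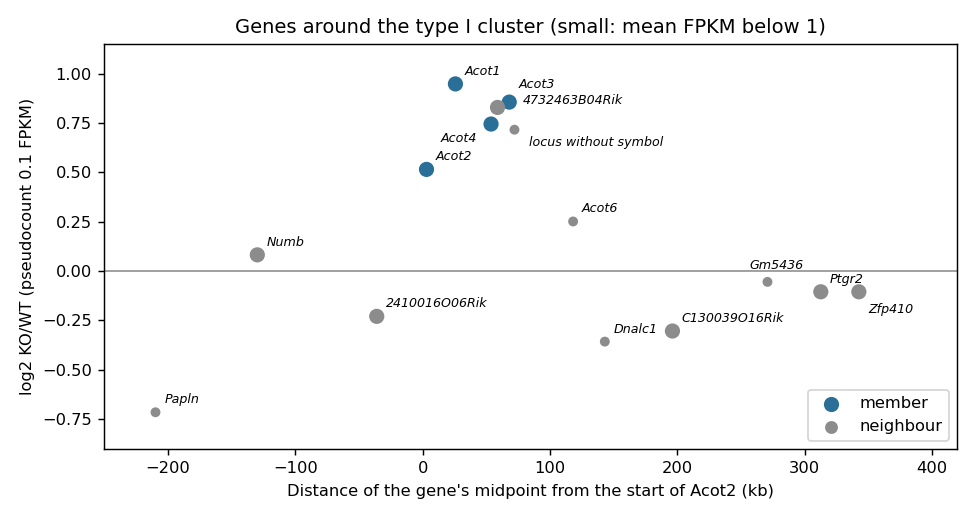
Log2 KO/WT (pseudocount 0.1 FPKM) of genes with a mean of 0.1 FPKM or more, against the distance of their midpoint from the start of Acot2 in kb, drawn from 250 kb before it; blue points are members. Acot1, Acot2, Acot3 and Acot4 lie between 0.51 and 0.95, together with the antisense gene 4732463B04Rik at 0.83, and a locus without a symbol at 0.72, while genes on either side lie between -0.72 and 0.25.

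The type II members lie on other chromosomes and went in both directions. Acot7 (chromosome 4, 151552243 to 151645964) measured 14.5 FPKM in WT against 8.61 FPKM in KO. It was 1.68-fold lower in KO (1.53 to 1.84), the largest difference in that direction among the 9 members, although 16.6% of all symbols had a lower log2 KO/WT. Acot13 (chromosome 13, 24909817 to 24923386) went from 31.6 to 20.7 FPKM and was 1.53-fold lower in KO (1.40 to 1.67), with 22.0% of all symbols lower still. At the deposited scaling most symbols were lower in KO, so neither value lies at an end of the distribution. The summed markers of hepatocytes, macrophages, endothelial, stellate, cholangiocyte and erythroid cells were lower in KO as well. Their part in the values of Acot7 and Acot13 was not tested.

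Acot8 (chromosome 2, 164618268 to 164630382), which cleaves a broad range of acyl-CoA and bile acid CoA esters in peroxisomes, measured 10.1 FPKM in WT against 15.5 FPKM in KO. The ratio was 1.54 (1.40 to 1.70), and 4.59% of all symbols had a higher log2 KO/WT. The end of Acot8 overlaps the end of Snx21 on the other strand, over 12.2% of its exonic bases, and Snx21 measured 1.94 FPKM in WT against 1.58 FPKM in KO. Acot12 (chromosome 13, 91881117 to 91925753) had the smallest difference of the members above 0.1 FPKM at the deposited scaling (Acot13 under both other scalings), with 20.1 FPKM in WT against 25.5 FPKM in KO, a ratio of 1.27 (1.21 to 1.33). The 4 type II genes summed to 76.2 FPKM in WT against 70.3 FPKM in KO, a ratio of 0.923 that turned to 1.06 with equal upper quartiles.

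The make-up of the family differed between the libraries in a way that scaling cannot change. Type I genes held 23.3% of the members' summed FPKM in WT and 36.9% in KO. Acot1 alone went from 11.8% to 20.4%, and Acot13 from 31.8% to 18.6%. The ratio of Acot1 to Acot7, both long-chain enzymes of the cytosol, was 0.811 in WT and 2.64 in KO. The ratio of Acot12 to Acot13 was 0.636 in WT and 1.23 in KO. By compartment, the 4 peroxisomal members (Acot3, Acot4, Acot5 and Acot8) made up 17.9% of the sum in WT and 25.8% in KO. Acot8 and Acot4, the most abundant of these, kept a similar ratio to each other, 1.58 in WT and 1.44 in KO.

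**Figure D4:**
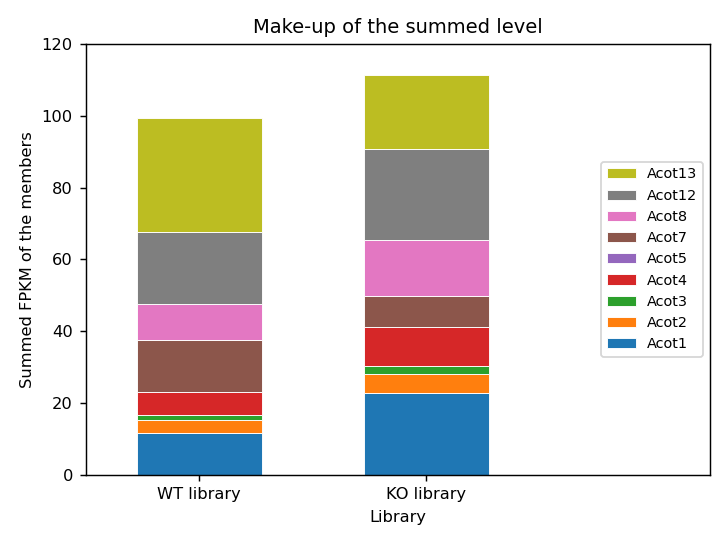
Summed FPKM of the 9 members in the WT and the KO library, stacked by gene. The whole stack is 99.3 FPKM in WT and 111 in KO, and the type I genes at its base take 23.3% in WT and 36.9% in KO.

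Of 9 thioesterases outside the member list, 6 had a mean of 0.1 FPKM or more. None of the 6 differed by more than 2-fold, and their median log2 KO/WT was 0.23. Ppt2 and Them4, the most abundant of them, had KO/WT ratios of 0.921 and 1.17. The other numbered family genes are named although they fall outside the rule for named genes. Acot9, a mitochondrial enzyme, was 1.89-fold lower in KO, with 3.61 FPKM in WT against 1.91 FPKM in KO. Acot11, which like Acot12 carries a lipid-binding START domain, had 1.87 in WT and 2.67 in KO, and Acot10 was listed at 0 in both. The relatives of the type I enzymes that conjugate bile acids or fatty acids to amino acids were each more abundant than any member in both libraries. Baat went from an FPKM of 96.3 in WT to 67.1 in KO, Acnat2 from 83.7 to 103, and Acnat1 from 34.8 to 36.4.

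Acyl-CoA synthetases, which make the substrates of thioesterases, showed 14 measured genes whose median log2 KO/WT was -0.42, with 3 lower and none higher by more than 2-fold. Those were Acss2 (5.76-fold lower in KO), Acsl3 (3.33-fold) and Acsl4 (2.06-fold). Without rows that name several symbols the count was 2. At least 1 of these values thus came at least in part from a row shared with other symbols, and which one is not given here. Under both other scalings 2 were lower and 1 higher, since Acsl4 no longer passed and Acsl1 did. The most abundant were Slc27a2, a very long-chain synthetase, with 227 FPKM in WT against 359 FPKM in KO, and the bile acid CoA synthetase Slc27a5, with 268 and 173. The median of the synthetases was thus below that of all symbols and the median of the thioesterase members above it.

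CoA, the product of each thioesterase, is made from pantothenate and broken down by Nudix hydrolases. Of the 14 genes for CoA synthesis and breakdown 1 was higher and 1 lower by more than 2-fold, and their median log2 KO/WT was -0.13, which turned to 0.07 with equal upper quartiles. Nudt7, the peroxisomal CoA hydrolase, measured 217 FPKM in WT against 97.3 FPKM in KO and was 2.24-fold lower in KO. Vnn1, a pantetheinase that returns pantothenate, was at 6.36 FPKM in WT and 2.04-fold higher in KO. Coasy, the last enzyme of CoA synthesis, had 67.1 and 63.7.

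Peroxisomal oxidation genes, whose products Acot3, Acot4, Acot5 and Acot8 can hydrolyse, numbered 17, and their median log2 KO/WT was 0.37, with 2 higher and 1 lower by more than 2-fold. Ehhadh, the bifunctional enzyme, was 2.95-fold and Crot, which moves medium-chain acyl groups from CoA to carnitine, 2.35-fold higher in KO. Abcd2, an importer of fatty acyl-CoA, was 3.35-fold lower in KO. Without rows that name several symbols the count past 2-fold in either direction was 2. The value of at least 1 of these genes thus came at least in part from a row shared with other symbols, and which one is not given here. Scp2, the most abundant, had a ratio of 1.37. Mitochondrial oxidation genes had a median of 0.58 over 17 genes. Eci1, which shifts double bonds of unsaturated acyl-CoA, was the only one of them above 2-fold (2.43-fold higher in KO), and Acaa2 and Etfb, the most abundant, had ratios of 1.53 and 0.988.

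**Figure D5:**
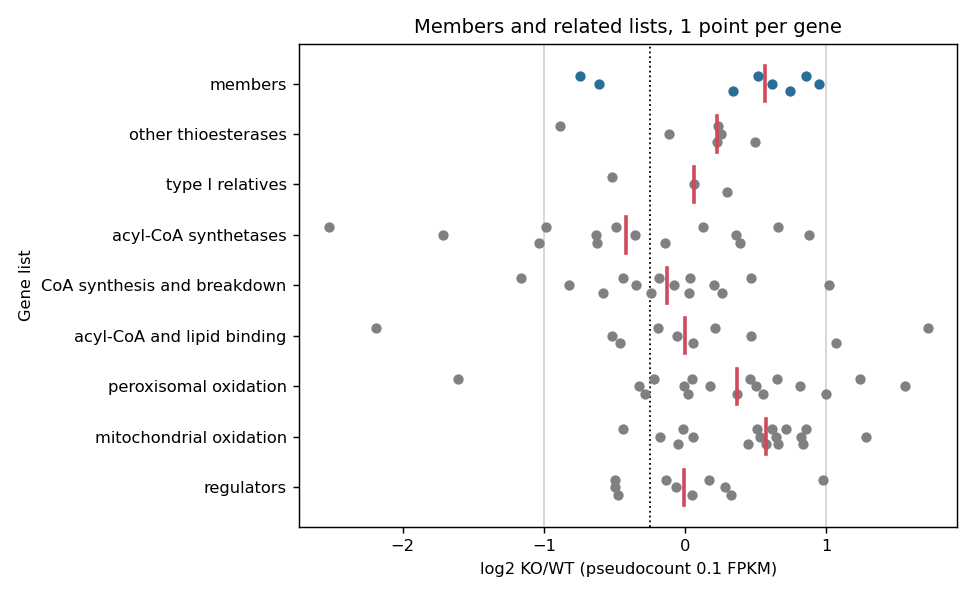
Log2 KO/WT (pseudocount 0.1 FPKM) of each gene with a mean of 0.1 FPKM or more, by list; red bars are medians, the dotted line is the median of all symbols (-0.25) and grey lines mark 2-fold. The median is 0.57 for the members, 0.58 for mitochondrial oxidation and -0.42 for the synthetases.

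Among 86 genes of the related lists with a mean of 1 FPKM or more, those nearest to Acot1 in log2 KO/WT were Creb3l3, Crat and Acsl1, which differed from it by 0.03, 0.05 and 0.07. Creb3l3 encodes a fasting-responsive liver transcription factor, Crat transfers short acyl groups from CoA to carnitine, and Acsl1 activates long-chain fatty acids. Likeness over 2 libraries is a single ratio per gene and not a pattern over conditions.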

How the data were processed

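RNA-sequencing of total liver RNA gave 1 WT and 1 KO library. The authors mapped the reads to NCBI37 (mm9) with TopHat and used Cufflinks and Cuffdiff, which gave the deposited FPKM of each locus. The submitters' processing notes name Cufflinks 1.3.0 and TopHat2 2.0.0. Read layout is given as single end in the methods and as paired end in the labels. The authors' table of 38016 rows also holds their fold changes, statistics, p-values and q-values, which were not used. The 21 rows whose estimate failed for too much data (status HIDATA) were left out, and a symbol with several rows was given their sum.

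The software was scipy 1.17.1, pandas 2.3.3, numpy 2.4.6 and matplotlib 3.10.9 under Python 3.11.15. Log2 ratios used a pseudocount of 0.1 FPKM, which understates changes of low genes, and lists were counted over genes whose mean was 0.1 FPKM or more. Fragments were estimated from 4023 single-exon genes and GENCODE vM1 transcript lengths. Ratio intervals are exact conditional binomial (Clopper-Pearson) and level intervals exact Poisson. No test was run, since there are no replicates. The steps were tested on simulated libraries. Genes named were all members, neighbours and nearest genes as described, and of each related list every gene above 2-fold whose mean was 1 FPKM or more and the 2 most abundant. The results of some genes that this rule names are left out. The members and lists were chosen with earlier results of these data known. Alternatives covered the fold, pseudocount, filter, scaling and row handling.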

Additional observations from a re-analysis of the deposited data

Results flagged for a closer look

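A locus without a gene symbol lies between Acot3 and Acot5 on chromosome 12, from 85400630 to 85401175 (NCBIM37). It entered no comparison of the members and had a higher level in the KO library than in the WT library, with an FPKM of 0.533 against 0.285. About 16.8 and 8.26 fragments stood behind these values, and the counting interval of the ratio, 0.800 to 5.24, included 1. It was picked out after its values were seen.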

How the results depend on the processing

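No paired analysis was possible because the labels tie neither library to the other, and no leave-one-out analysis because each genotype has 1 library. Over 10 alternatives, 39 of 237 values moved. Each of the 8 members above 0.1 FPKM kept its direction, from 0.90 to 1.18 for Acot1 and from -0.75 to -0.50 for Acot7 on the log2 scale, and the median over the members ranged from 0.50 to 0.80. With a 1.5-fold threshold, 4 members were higher and 2 lower in KO, against 4.93% and 22.9% of all symbols. With equal upper quartiles 2 members were higher by more than 2-fold, and centring on the median of expressed genes also gave 2, against 2.96% and 3.27% of all symbols. Depth limits the value of Acot5, and the unmeasured difference between mice limits all others.

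For the related lists, the number of genes above 2-fold in either direction moved as follows. At 1.5-fold it was 1 for other thioesterases, 8 for synthetases and 3 for CoA genes. At that fold it was 6 for peroxisomal oxidation, 8 for mitochondrial oxidation and 1 for regulators. At 3-fold it was 2 for synthetases, 0 for CoA genes, 1 for peroxisomal and 0 for mitochondrial oxidation. It was also 2 there for proteins that bind acyl-CoA or fatty acids. Both scalings gave 1 for CoA genes, 5 for peroxisomal oxidation, 4 for mitochondrial oxidation and 1 for regulators. A pseudocount of 1 FPKM gave 1 for CoA genes and 2 for peroxisomal oxidation. With a pseudocount of 0.01 FPKM it was 4 for synthetases and 4 for peroxisomal oxidation. For synthetases the total of 3 stayed under both scalings, but its split went from 3 lower to 2 lower and 1 higher. Without rows that name several symbols the number was 2 for synthetases and 2 for peroxisomal oxidation. A gene counted above 2-fold in each of these lists thus owed its value at least in part to a row shared with other symbols. The median of the CoA genes turned from -0.13 to 0.07 with equal upper quartiles, 0.11 under centring and 0.03 without rows that name several symbols. That of the regulators turned from -0.01 to 0.19, 0.23 and, with a mean of 1 FPKM or more, 0.05. Under centring the median of the type I relatives was 0.30, and the median of mitochondrial oxidation was 0.78 with equal upper quartiles and 0.81 under centring.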

Other observations

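Proteins that bind acyl-CoA or fatty acids, which hold the substrates and products of thioesterases, numbered 10, and their median log2 KO/WT was 0.00029, with 2 higher and 1 lower by more than 2-fold. Fabp1, the main fatty acid binding protein of hepatocytes, was 3.28-fold higher in KO, and Fabp2, the intestinal form, went from 24.4 to 51.2 FPKM. Fabp5 was 4.61-fold lower in KO, from 29.3 to 6.35 FPKM. Dbi, the acyl-CoA binding protein, had 798 in WT and 580 in KO. Pctp, the partner of Acot13, is named although it falls outside the rule for named genes, and had 31.2 in WT and 43.1 in KO while Acot13 was lower in KO.

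None of the 10 regulator genes (PPARs, RXRs, PGC1 coactivators, Hnf4a and Creb3l3) differed by more than 2-fold, and their median log2 KO/WT was -0.01 at the deposited scaling. With equal upper quartiles the median was 0.19, and Creb3l3 passed 2-fold. Hnf4a, the most abundant, stood at 172 FPKM in WT against 193 FPKM in KO, and Creb3l3 was 1.96-fold higher in KO, at 147 FPKM. Ppara, named outside the rule, had 24.4 in WT and 25.2 in KO.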
